A study of Mus musculus with 12 samples.

Results

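The expression of 33 genes of glycolysis, lactate exchange and glycogen turnover was compared between the cell body and dendritic layers of hippocampal regions CA1 and CA2 in the mouse. The genes were chosen by name. A gene was measured where a feature of the platform annotation carried its symbol and no other symbol, and where several features did so the one with the highest mean over the 12 arrays was used. By this rule 29 of the 33 genes were found among 30145 genes and 72688 features. Gpi1, Pfkfb1 and Eno1 were not analysed here, and Pfkfb2 had only a feature that it shares with C4bp-ps1.

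RNA was taken from 3 male mice of the strain Amigo2-GFP C57BL/6J, also written Amigo2-EGFP, aged 6 to 8 weeks, from separate litters and with no treatment other than the terminal anaesthesia. All groups carried the reporter, which is controlled by Amigo2, a gene of CA2 pyramidal neurons. The labels do not say whether its fluorescence guided the cutting. Each brain gave 4 pieces by laser capture: the stratum pyramidale of CA1 and of CA2, where the somata of pyramidal neurons are packed (cell body layer), and the stratum radiatum of each region, which holds their apical dendrites with glia, vessels and interneurons (dendritic layer). Each of the 4 groups had 3 arrays, numbered 1 to 3. The labels do not say that arrays with the same number come from the same mouse. Values are the authors' log2 expression values, so a difference of 1 is a fold of 2, and a value has meaning only against the same gene on other arrays.

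By the labels the CA1 arrays form a run of their own and the CA2 arrays another, so when CA2 is set against CA1 the region and the run cannot be told apart. Comparisons of layers lie within a run, but control features also differed between layers. The poly-A controls averaged 10.68 to 11.075 on the CA1 cell body arrays against 7.51 to 8.43 on the CA1 dendritic arrays. In CA2 the order was reversed, at 8.53 to 8.725 against 9.39 to 9.66. The hybridization controls averaged higher on the dendritic arrays in both regions. The part of these control differences in the layer results was not tested. The marker genes matched the labels: the mean over 5 CA2 markers was 9.91 to 10.12 in the CA2 cell body layer against 7.19 to 7.32 in that of CA1, and the mean over 4 CA1 markers was 7.80 to 8.10 and 9.88 to 9.97. On 3 arrays, CA2 cell body replicate 1 and CA2 dendritic replicates 2 and 3, a list of 16 oocyte genes stood at 7.13 to 7.22, against 5.50 to 5.88 on the other arrays. For the 29 genes, results on CA2 that lost their call without these arrays are also given without them. This leaves 1 CA2 dendritic array, which is assumed to vary like the other groups. The cell type markers and the further pathway genes named below were not followed in that setting. Replicates correlated at 0.990 to 0.997 over all genes. The median SD of the 29 genes within a group was 0.05 to 0.08.

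Glycolysis splits glucose into a pair of pyruvate molecules in a series of cytosolic steps, most of which are run by several isoenzymes from different genes. Lactate dehydrogenase interconverts pyruvate and lactate, and monocarboxylate carriers move lactate across membranes. In the brain, glycogen is kept mainly in astrocytes, and lactate released by astrocytes is a known fuel and signal for neurons. Several isoenzymes have a textbook bias: Slc2a3, Hk1, Eno2 and Slc16a7 towards neurons, and Aldoc, Slc16a1, Slc16a3, Pfkfb3, Gpd1, Pygb, Pygm, Gys1 and Gbe1 towards glia. The other genes, Pgm2 among them, were put in neither class.

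Most of the genes differed between layers, and in both regions genes of the same pathway step moved in opposite directions. In CA1, 24 of 29 genes passed the test (limma, Benjamini-Hochberg adjusted p under 0.05 over all 30145 genes), 11 higher and 13 lower in the dendritic layer. The background over all genes was 46.8% called, 28.3% higher and 18.5% lower. In CA2, 22 of 29 passed, 9 higher and 13 lower, against a background of 34% called, 16.2% higher and 17.8% lower. Without the 3 oocyte-bearing arrays fewer genes passed in CA2, both among the 29 genes and over all genes. The calls lost among the 29 were all on genes higher in the dendritic layer. The background given here is that of the fit of all 12 arrays, so it cannot be set against the smaller fit. In the fit of all 12 arrays the share called among the 29 genes was 82.8% in CA1 and 75.9% in CA2. Their median difference was 0.00 in CA1 and -0.09 in CA2, and that of all genes was 0.12 and -0.03.

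Higher in the dendritic layer of both regions were 8 genes: the aldolase isoenzyme Aldoc, the lactate dehydrogenase subunit Ldhb, the lactate carrier Slc16a1 and its partner Bsg, and the glycogen genes Pygb, Pygm, Gys1 and Gbe1. Lower in both were 13 genes: the glucose carrier Slc2a3, Hk1, Pfkl, Pfkp, Aldoa, Tpi1, Pgk1, Pgam1, Eno2, Pkm, Ldha, Slc16a7 and Gpd1. No gene was called in opposite directions. The share of all genes called in both regions, in the same or opposite directions, was not computed. With the oocyte-bearing arrays left out, Ldhb, Bsg, Gys1 and Gbe1 lost their CA2 call, and Aldoc, Slc16a1, Pygb and Pygm were the 4 called higher in both regions. All 4 neuron-associated genes measured were lower in both regions, with medians of -0.70 and -0.67. Of the 9 glia-associated genes measured, 8 were higher and Gpd1 lower in CA1, and 6 were higher and Gpd1 lower in CA2, with medians of 0.49 and 0.65. In CA2 4 of these were higher without the oocyte-bearing arrays.

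**Figure D1:**
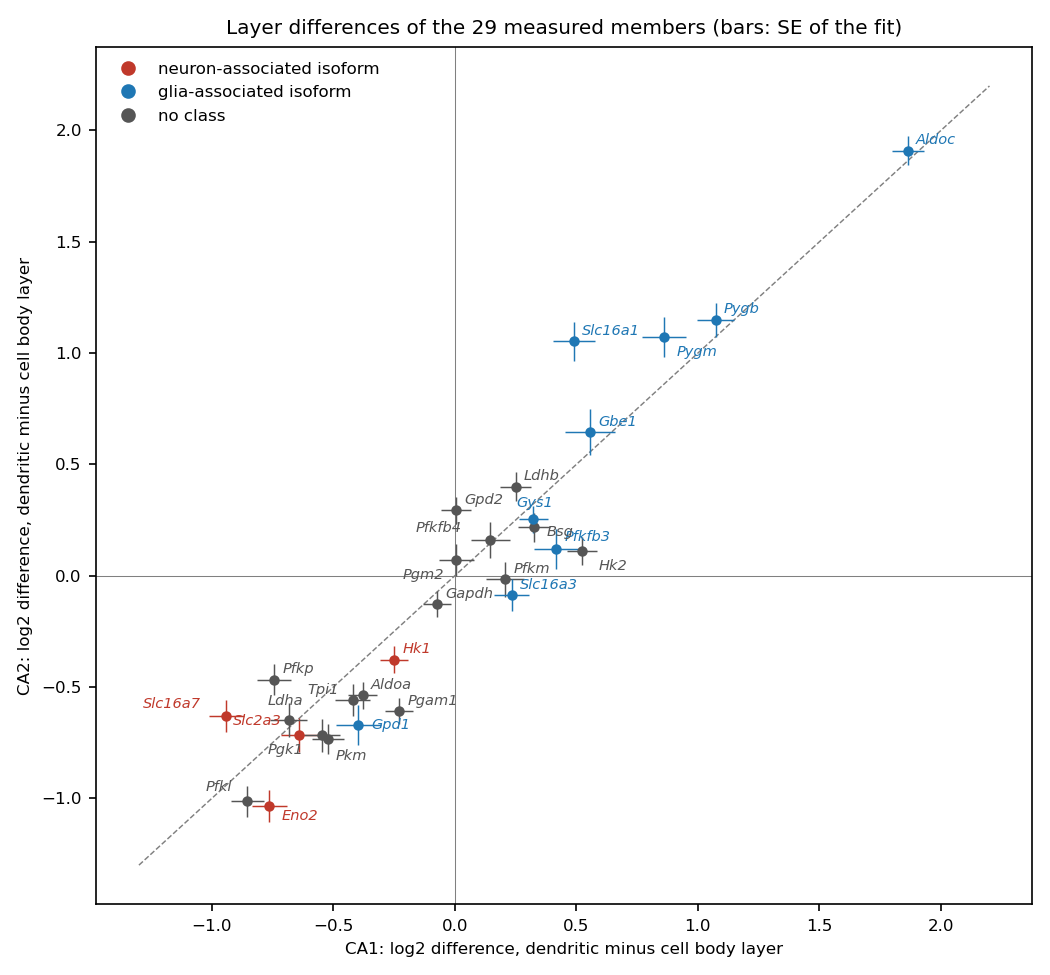
Log2 difference between dendritic and cell body layer of the 29 measured genes in CA1 (horizontal axis) and CA2 (vertical axis), with bars for the SE of the limma fit and a dashed line where both are equal. Aldoc lies at the upper end at 1.86 and 1.91, Eno2, Pfkl and Slc16a7 lie at the lower end, and the genes called in both regions lie on the same side of 0 in both.

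Cell type markers moved with these groups. All 8 astrocyte markers were higher in the dendritic layer in both regions, and their mean was 7.48 to 7.53 in the CA1 cell body layer against 9.52 to 9.56 in the dendritic layer, and 7.68 to 7.71 against 9.59 to 9.78 in CA2. The same was found for all 6 microglial and all 6 endothelial markers and for the 5 oligodendrocyte and 3 oligodendrocyte precursor markers measured. Of 6 interneuron markers, 4 were higher in each region, 1 was lower in CA1 and 0 in CA2. Their mean went from 8.34 to 8.51 up to 9.19 to 9.54 in CA1, and from 8.32 to 8.60 up to 9.30 to 9.47 in CA2. Of 5 pyramidal neuron markers measured, 3 were lower and 1 higher in the CA1 dendritic layer, and 4 lower and 1 higher in CA2. Their mean went from 9.81 to 9.93 down to 9.27 to 9.40 in CA1, and from 10.10 to 10.17 down to 8.93 to 9.07 in CA2. The part of these shifts in the results below was not tested. In tissue pieces of this kind, fewer cells of a type and less RNA per cell cannot be told apart.

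The windows around the start sites of these genes shared a sequence feature that the choice of genes did not use. The letters ACGTG, the core of the element bound by hypoxia-inducible factors, were searched on both strands of RefSeq promoter windows of 300 bases (250 before and 50 after the start, build GRCm38.p6). Of the 29 genes, 25 were matched, with 36 windows. ACGTG occurred in 20 of the 36 windows (55.6%) against 19.6% of all 32851 windows of the table, and in 17 of the 25 genes against 21.8% of all 27025 genes. Windows of a gene can overlap, and a site in the overlap then counts in each. The windows of the 25 genes also had a higher median GC content, 59.7% against 52.7% over all windows. The palindrome CACGTG, the E-box, holds ACGTG on both strands, so the counts overlap. It was in 11.1% of the windows against 7.2% of all, and TGACGTCA, the cAMP response element, was in 2.8%, from Ldha alone, against 1.8%. ACGTG was found among genes of either direction: in 4 of 7 matched genes that were higher in the dendritic layers, in 6 of 10 that were lower, and in 7 of the 8 others. These are matches of letters, and no binding was measured.

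To show both directions side by side, the 250 bases before the start are given for Ldha (chr7:46845554-46845803) and Pgk1 (chrX:106186850-106187099), which were lower in the dendritic layers, and for Slc16a1 (chr3:104638414-104638663) and Pygm (chr19:6384158-6384407), which were higher. All 4 lie on the plus strand of GRCm38.p6 and are read 5′ to 3′ from RefSeq. All 4 hold ACGTG there, while other windows hold none before the start. Those without it include both windows of Aldoc, those of Ldhb, Eno2 and Gbe1, and the other window of Ldha. Capitals mark ACGTG or its reverse complement, and a run of CACGTG counts once on each strand. Ldha had 5 such matches, of which 2 pairs came from CACGTG, Pgk1 and Slc16a1 had 2 each, and Pygm had 1.
Ldha: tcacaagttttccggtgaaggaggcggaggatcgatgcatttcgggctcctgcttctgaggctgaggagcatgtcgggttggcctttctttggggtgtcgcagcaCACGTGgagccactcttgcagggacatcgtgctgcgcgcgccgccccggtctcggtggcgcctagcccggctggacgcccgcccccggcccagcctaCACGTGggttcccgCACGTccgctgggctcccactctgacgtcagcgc
Pgk1: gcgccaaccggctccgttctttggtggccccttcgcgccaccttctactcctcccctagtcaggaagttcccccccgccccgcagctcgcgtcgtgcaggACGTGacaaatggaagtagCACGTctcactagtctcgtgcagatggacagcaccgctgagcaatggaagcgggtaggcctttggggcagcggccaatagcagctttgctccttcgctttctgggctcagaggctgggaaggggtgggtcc
Slc16a1: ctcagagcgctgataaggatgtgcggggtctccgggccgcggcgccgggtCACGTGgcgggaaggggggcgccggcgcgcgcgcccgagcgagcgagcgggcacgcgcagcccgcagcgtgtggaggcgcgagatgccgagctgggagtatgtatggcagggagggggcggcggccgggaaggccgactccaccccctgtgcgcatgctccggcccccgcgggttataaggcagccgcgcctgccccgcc
Pygm: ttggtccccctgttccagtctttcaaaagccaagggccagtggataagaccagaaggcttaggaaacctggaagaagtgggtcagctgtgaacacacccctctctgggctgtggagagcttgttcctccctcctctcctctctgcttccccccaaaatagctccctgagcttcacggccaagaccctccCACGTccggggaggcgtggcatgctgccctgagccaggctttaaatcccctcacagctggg

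RNA of the neuronal forms of the glucose carrier and of hexokinase was lower in the dendritic layers. Slc2a3 encodes GLUT3, the high-affinity glucose carrier of neurons. It read 8.11, 8.10 and 8.17 in the CA1 cell body layer and 7.55, 7.31 and 7.60 in the CA1 dendritic layer. In CA2 it read 8.53, 8.47 and 8.65 against 7.97, 7.72 and 7.81. The layers did not overlap in either region, and the 2 CA2 groups stood above their CA1 counterparts. The difference was -0.64 ± 0.08 (SE, adjusted p = 6.52e-05) in CA1 and -0.72 ± 0.08 (adjusted p = 3.13e-05) in CA2.

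Hexokinase traps glucose as glucose 6-phosphate, and its forms went apart. Hk1, the main brain form, which binds mitochondria, was 8.67, 8.60 and 8.66 in the CA1 cell body layer and 8.46, 8.34 and 8.38 in the dendritic layer. The CA2 values were 8.73, 8.76 and 8.76 against 8.40, 8.33 and 8.39. The arrays of the layers did not overlap, with differences of -0.25 ± 0.06 (adjusted p = 0.00593) and -0.38 ± 0.06 (adjusted p = 0.000514). In CA1 the call on Hk1 was lost after quantile normalization (-0.12, adjusted p = 0.15) and without the arrays numbered 2 (adjusted p = 0.0615) or 3 (0.0597). Hk2, an inducible form, stood at 6.27, 6.25 and 6.24 in the CA1 cell body layer and rose to 6.85, 6.76 and 6.72 in the dendritic layer (0.52 ± 0.06, adjusted p = 7.42e-05). In CA2 the layers overlapped, at 6.42, 6.45 and 6.38 against 6.63, 6.45 and 6.50 (0.11 ± 0.06, adjusted p = 0.23). Hk2 did not exceed the 95th percentile of 92 external control features, 7.08 to 7.46 by array, on any array, so it lay in the range of background signal.

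Among the preparatory steps, the phosphofructokinase subunits differed from each other. This enzyme commits sugar to glycolysis and is built from liver (Pfkl), muscle (Pfkm) and platelet (Pfkp) type subunits. Pfkl was 9.03, 8.92 and 9.11 in the CA1 cell body layer and 8.24, 8.07 and 8.19 in the dendritic layer, and 9.06, 9.15 and 9.13 against 8.14, 8.00 and 8.16 in CA2. This was a wide gap in both regions: -0.85 ± 0.07 (adjusted p = 4.95e-06) and -1.01 ± 0.07 (adjusted p = 1.39e-06), a fold of 1.81 and 2.02. Pfkp fell from 9.17, 9.15 and 9.21 to 8.39, 8.33 and 8.58 in CA1 (-0.74 ± 0.07, adjusted p = 1.34e-05), and from 9.48, 9.49 and 9.51 to 8.95, 9.08 and 9.05 in CA2 (-0.47 ± 0.07, adjusted p = 0.000361). Pfkm overlapped between layers in both regions. Its arrays read 9.65, 9.51 and 9.65 against 9.90, 9.64 and 9.89 in CA1 (0.21 ± 0.08, adjusted p = 0.0557), and 10.00, 10.10 and 10.10 against 9.98, 10.08 and 10.09 in CA2 (-0.02 ± 0.08, adjusted p = 0.91). The CA1 difference of Pfkm passed the threshold in 5 alternatives, among them the fit with no replicate block (adjusted p = 0.0478), quantile normalization (0.39, adjusted p = 0.0042) and without CA1 dendritic replicate 2 (0.29, adjusted p = 0.0172).

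Aldolase, which cleaves fructose 1,6-bisphosphate, showed the widest contrast among these genes. Aldoc, aldolase C, is used as an astrocyte marker. It was 10.34, 10.16 and 10.11 in the CA1 cell body layer and 12.11, 12.02 and 12.07 in the dendritic layer. The CA2 arrays read 10.17, 10.12 and 10.15 against 12.05, 12.04 and 12.08. The regions overlapped in both layers and the layers lay far apart. The difference was 1.86 ± 0.07 in CA1 (adjusted p = 2.63e-08) and 1.91 ± 0.07 in CA2 (adjusted p = 2.27e-08), a fold of 3.64 and 3.76. Aldoa, the ubiquitous aldolase A, went the other way. It read 9.50, 9.45 and 9.49 against 9.11, 9.05 and 9.14 in CA1 (-0.38 ± 0.06, adjusted p = 0.000517) and 9.55, 9.50 and 9.55 against 9.05, 9.01 and 8.93 in CA2 (-0.54 ± 0.06, adjusted p = 5.13e-05). Tpi1, triose phosphate isomerase, which has no isoenzyme here, was also lower in the dendritic layers. Its values were 10.19, 10.04 and 10.13 against 9.69, 9.61 and 9.80 in CA1 (-0.42 ± 0.07, adjusted p = 0.000853), and 10.45, 10.61 and 10.59 against 9.97, 9.95 and 10.05 in CA2 (-0.56 ± 0.07, adjusted p = 0.000132).

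Of the bifunctional enzymes that make and remove fructose 2,6-bisphosphate, an activator of phosphofructokinase, Pfkfb3 passed in CA1 and Pfkfb4 in neither region. Pfkfb3, the form with the strongest kinase bias, was higher in the CA1 dendritic layer, at 7.80, 7.50 and 7.68 against 7.28, 7.14 and 7.31 (0.42 ± 0.09, adjusted p = 0.00378). In CA2 its layers overlapped, at 7.66, 7.80 and 7.91 against 7.75, 7.66 and 7.60 (0.12 ± 0.09, adjusted p = 0.38). Pfkfb4 did not exceed the control level on any array and passed the test in neither region (0.15 and 0.16, adjusted p = 0.152 and 0.166).

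Of the 5 payoff genes measured, 4 were lower in both dendritic layers and Gapdh passed in neither. Phosphoglycerate kinase 1 (Pgk1) makes the first ATP of the pathway. Its values were 11.38, 11.38 and 11.35 in the CA1 cell body layer and 10.87, 10.66 and 10.94 in the dendritic layer, and 11.88, 11.83 and 11.85 against 11.14, 11.16 and 11.11 in CA2. No 2 of the 4 groups overlapped, and both CA2 groups stood above their CA1 counterparts. The layer difference was -0.55 ± 0.07 (adjusted p = 0.000168) in CA1 and -0.72 ± 0.07 (adjusted p = 2.7e-05) in CA2. The identifier of the Pgk1 feature used names chromosome 12, while RefSeq places the gene on chromosome X; a second feature, named for X, gave -0.67 and -0.65, so the direction held on both. Enolase 2 (Eno2), the neuron-specific enolase, had the lowest dendritic values relative to the cell bodies in CA2. It read 9.46, 9.35 and 9.42 against 8.73, 8.50 and 8.71 in CA1 (-0.76 ± 0.07, adjusted p = 1.37e-05), and 9.36, 9.45 and 9.41 against 8.37, 8.36 and 8.39 in CA2 (-1.03 ± 0.07, adjusted p = 1.59e-06), a fold of 1.7 and 2.05.

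Pkm, the pyruvate kinase of brain, was 10.17, 10.12 and 10.21 against 9.63, 9.62 and 9.68 in CA1 (-0.52 ± 0.07, adjusted p = 1e-04). The CA2 values were 10.14, 10.21 and 10.20 against 9.36, 9.55 and 9.44 (-0.73 ± 0.07, adjusted p = 9.95e-06). Pgam1, phosphoglycerate mutase, had the smallest layer difference of the 4 in CA1. It was 10.16, 10.15 and 10.13 against 9.94, 9.90 and 9.91 in CA1 (-0.23 ± 0.06, adjusted p = 0.00921), a call lost in 5 alternatives, with -0.07 and adjusted p = 0.401 after quantile normalization, and adjusted p between 0.0503 and 0.0894 in the other 4 (the pair of CA1 groups alone, and leaving out the arrays numbered 1, 2 or 3). In CA2 it was 10.56, 10.57 and 10.50 against 10.00, 9.96 and 9.85 (-0.61 ± 0.06, adjusted p = 1.76e-05). Gapdh, often used as a reference gene, stood at 11.56, 11.56 and 11.59 against 11.52, 11.44 and 11.53 in CA1 (-0.07 ± 0.06, adjusted p = 0.315) and at 11.54, 11.59 and 11.59 against 11.45, 11.45 and 11.44 in CA2 (-0.13 ± 0.06, adjusted p = 0.131). Its layers did not overlap in either region, but the gaps were small. In CA2 Gapdh passed after quantile normalization (-0.36, adjusted p = 0.00186) and in a robust fit with an intensity trend (adjusted p = 0.0457). Gapdh and Pgam1 have near-identical copies in the genome, and features shared with such copies gave differences of other sizes. For Pgam1 these were -0.34 and -0.29 in CA1 and -0.90 and -0.48 in CA2, all in the direction of the feature used. The shared Gapdh feature gave -0.05 in CA1 and 0.00 in CA2. The size of the difference is thus uncertain for both genes.

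**Figure D2:**
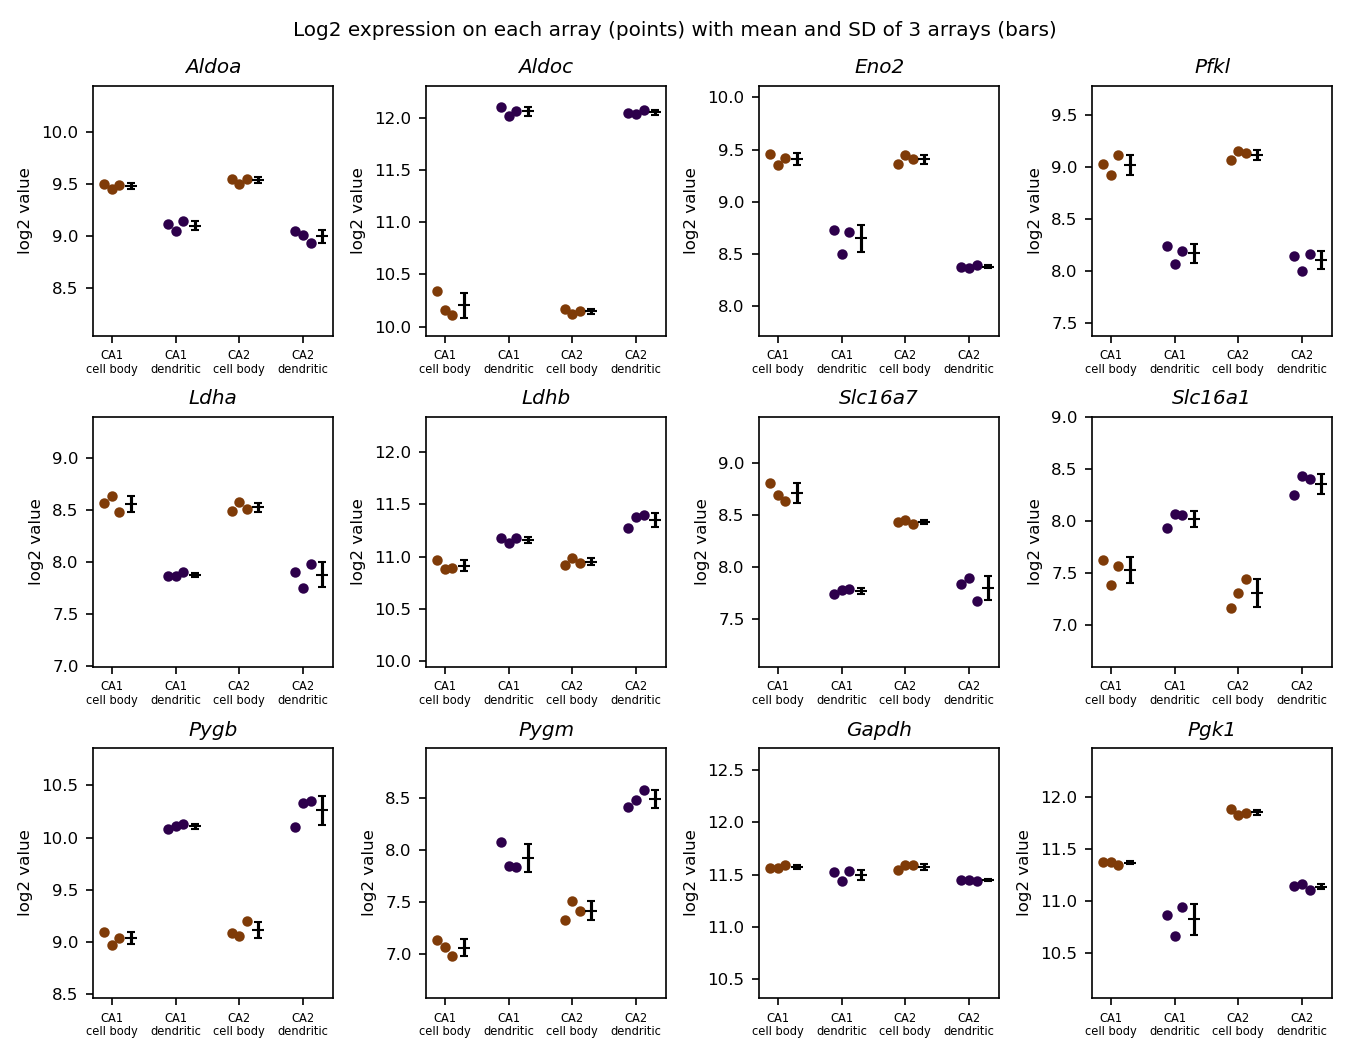
Log2 expression value of 12 of the genes on each array (points), by region and layer, with the mean and SD of 3 arrays (bars). Each panel has its own vertical axis, and the axes do not start at 0. Aldoc, Ldhb, Slc16a1, Pygb and Pygm stand higher in the dendritic layers, Aldoa, Eno2, Pfkl, Ldha, Slc16a7 and Pgk1 stand lower, and Gapdh stays between 11.44 and 11.59.

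The lactate genes split into opposite directions. Ldha, whose subunit favours the making of lactate, was lower in the dendritic layers. It read 8.56, 8.63 and 8.48 against 7.86, 7.86 and 7.90 in CA1 and 8.49, 8.57 and 8.51 against 7.90, 7.75 and 7.98 in CA2. The layers were well apart and the regions overlapped, with differences of -0.68 ± 0.08 (adjusted p = 4.52e-05) and -0.65 ± 0.08 (adjusted p = 7.18e-05). Ldhb, whose subunit favours the use of lactate, was higher in the dendritic layers. Its values were 10.97, 10.88 and 10.89 against 11.18, 11.13 and 11.18 in CA1 (0.25 ± 0.06, adjusted p = 0.0101), and 10.92, 10.99 and 10.94 against 11.27, 11.38 and 11.40 in CA2 (0.40 ± 0.06, adjusted p = 0.00067). The Ldhb call was lost in CA1 without the arrays numbered 2 (adjusted p = 0.0734), those numbered 3 (0.0786) or CA1 cell body replicate 2 (0.0517). In CA2 it was lost when the 3 oocyte-bearing arrays were left out (0.25, adjusted p = 0.234).

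The monocarboxylate carriers also went apart. Slc16a7 encodes MCT2, the high-affinity lactate carrier of neurons, and was lower in the dendritic layers. It read 8.81, 8.69 and 8.63 against 7.74, 7.78 and 7.79 in CA1, and 8.43, 8.45 and 8.41 against 7.84, 7.89 and 7.67 in CA2. The differences were -0.94 ± 0.07 (adjusted p = 2.98e-06) and -0.63 ± 0.07 (adjusted p = 4.75e-05). Slc16a1 encodes MCT1, a carrier of glia and endothelium, and was higher there. It stood at 7.63, 7.39 and 7.57 against 7.93, 8.07 and 8.06 in CA1 and at 7.17, 7.31 and 7.44 against 8.25, 8.43 and 8.40 in CA2. Slc16a1 exceeded the control level on 2 of 3 CA2 cell body arrays, so its CA2 gap starts near the range of background signal. Its gap was wider in CA2, 1.05 ± 0.09 (adjusted p = 5.59e-06), than in CA1, 0.49 ± 0.09 (adjusted p = 0.00105). Endothelial and astrocyte markers rose with it, and their part was not tested: the mean of the 6 endothelial markers went from 6.89 to 6.99 up to 8.87 to 9.05 in CA1, and from 7.32 to 7.40 up to 9.20 to 9.34 in CA2.

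Slc16a3, which encodes MCT4, a carrier of astrocytes, did not exceed the control level on any array. It was 6.42, 6.40 and 6.46 against 6.84, 6.59 and 6.55 in CA1 (0.23 ± 0.07, adjusted p = 0.0236), a call lost in 10 of 25 alternatives with adjusted p from 0.0503 to 0.239, the highest without the arrays numbered 1. In CA2 it was 6.60, 6.50 and 6.51 against 6.49, 6.38 and 6.48 (-0.09 ± 0.07, adjusted p = 0.433). Bsg, basigin, which brings MCT1 and MCT4 to the membrane, was 10.87, 10.77 and 10.91 against 11.17, 11.21 and 11.15 in CA1 (0.33 ± 0.07, adjusted p = 0.00222). In CA2 Bsg was 10.79, 10.87 and 10.94 against 11.06, 11.05 and 11.14 (0.22 ± 0.07, adjusted p = 0.0252). The CA2 call on Bsg was weak: it was lost in 12 of 25 alternatives, with adjusted p up to 0.546 when the 3 oocyte-bearing arrays were left out and above the threshold without any 1 of the 6 CA2 arrays, and in CA1 it was lost without the arrays numbered 2 (adjusted p = 0.0521).

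The glycerol phosphate genes, which carry reducing equivalents from the cytosol to mitochondria, behaved differently from each other. Gpd1, the cytosolic dehydrogenase, was lower in the dendritic layers although it is listed with glia. It read 8.92, 8.70 and 8.84 against 8.53, 8.30 and 8.44 in CA1 (-0.40 ± 0.09, adjusted p = 0.00503) and 8.66, 8.73 and 8.84 against 7.98, 8.18 and 8.06 in CA2 (-0.67 ± 0.09, adjusted p = 0.000191). Gpd2, the mitochondrial dehydrogenase, overlapped between the CA1 layers, at 10.13, 10.22 and 10.15 against 10.20, 10.22 and 10.09 (0.00 ± 0.06, adjusted p = 0.968). In CA2 it was lower than in CA1 on every array and differed between layers, at 9.58, 9.61 and 9.61 against 9.87, 9.89 and 9.92 (0.29 ± 0.06, adjusted p = 0.00349), a call lost when the 3 oocyte-bearing arrays were left out (0.265, adjusted p = 0.225).

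The glycogen genes were higher in the dendritic layers, 4 of 5 in each region, with medians of 0.56 and 0.65. Glycogen phosphorylase frees glucose 1-phosphate from glycogen, and both its brain form Pygb and its muscle form Pygm are made by astrocytes. Pygb was 9.09, 8.97 and 9.04 against 10.08, 10.11 and 10.13 in CA1 and 9.08, 9.05 and 9.20 against 10.10, 10.33 and 10.35 in CA2. The layers lay about 1 log2 unit apart: 1.07 ± 0.08 (adjusted p = 2.08e-06) and 1.15 ± 0.08 (adjusted p = 1.16e-06), a fold of 2.1 and 2.22. Pygm was 7.14, 7.07 and 6.98 against 8.08, 7.85 and 7.84 in CA1 (0.86 ± 0.09, adjusted p = 3.03e-05) and 7.33, 7.51 and 7.41 against 8.41, 8.48 and 8.58 in CA2 (1.07 ± 0.09, adjusted p = 6.44e-06). On the CA1 cell body arrays Pygm was in no case above the control level, so its CA1 gap is measured from the range of background signal.

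Gys1, the muscle type glycogen synthase, rose by less. It was 6.58, 6.52 and 6.53 against 6.92, 6.86 and 6.82 in CA1 (0.32 ± 0.06, adjusted p = 0.00135) and 6.65, 6.69 and 6.60 against 6.91, 6.96 and 6.83 in CA2 (0.25 ± 0.06, adjusted p = 0.00688), with no array above the control level. The branching enzyme Gbe1 was 6.83, 6.64 and 6.53 against 7.18, 7.06 and 7.43 in CA1 (0.56 ± 0.10, adjusted p = 0.00134) and 7.39, 7.31 and 7.50 against 7.99, 7.93 and 8.22 in CA2 (0.65 ± 0.10, adjusted p = 0.000561). Without the arrays with oocyte transcripts, Gys1 (0.20, adjusted p = 0.35) and Gbe1 (0.495, adjusted p = 0.159) no longer passed in CA2. Gbe1 was above the control level on 0 of 3 CA1 cell body and 1 of 3 CA1 dendritic arrays. In CA2 Gys1 also missed without the arrays numbered 1, 2 or 3 (adjusted p from 0.0561 to 0.0673). Pgm2, the platform's symbol for the phosphoglucomutase that RefSeq now names Pgm1, overlapped between layers in both regions (0.01 and 0.07, adjusted p = 0.944 and 0.531).

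**Figure D3:**
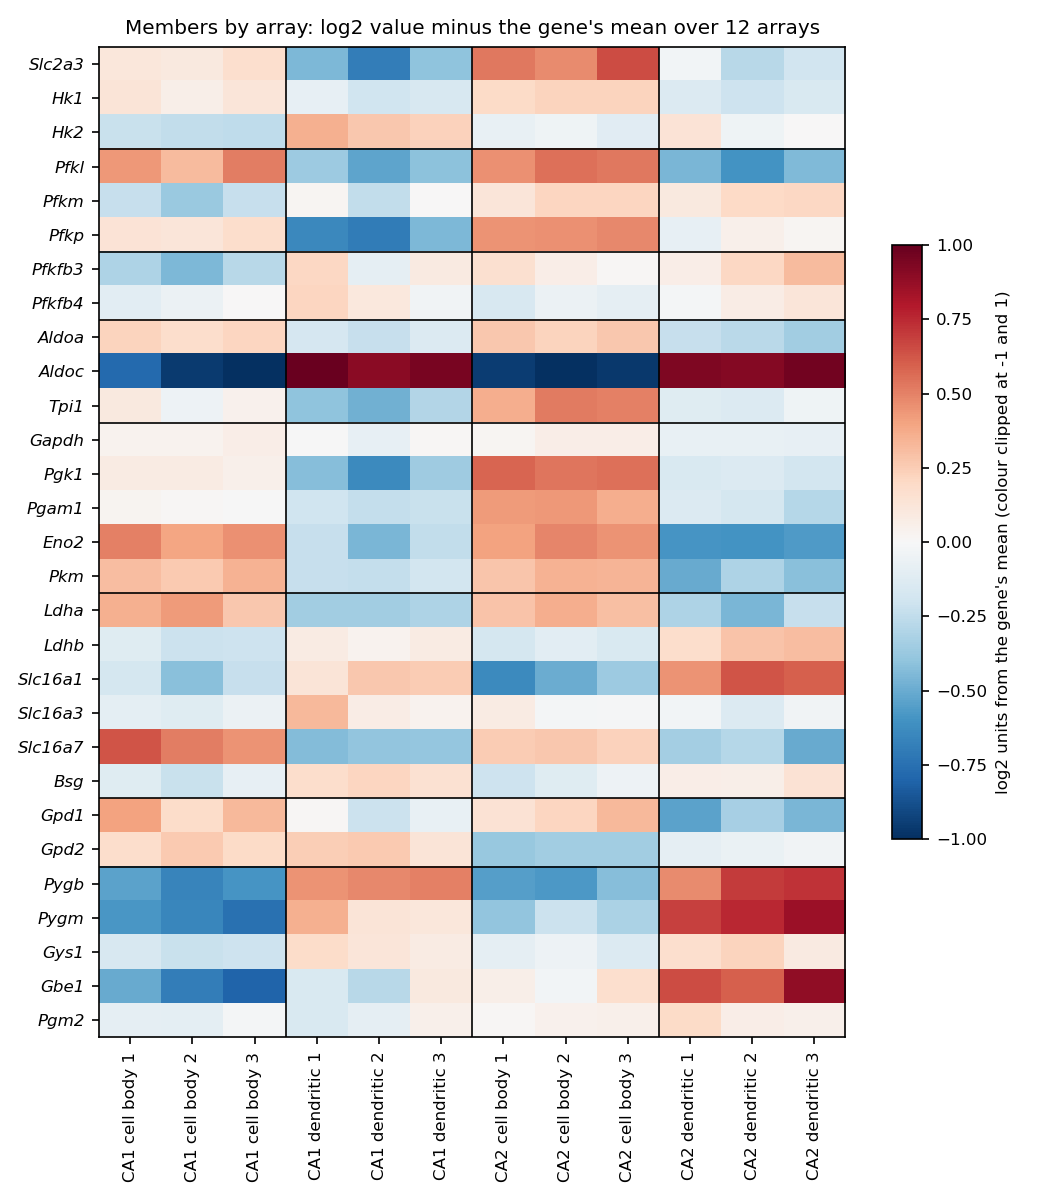
Each row is one of the 29 genes, ordered by role, and each column one array; colour gives the log2 value minus the gene's mean over 12 arrays, clipped at -1 and 1. Arrays of a group look alike. Aldoc and the glycogen genes Pygb and Pygm turn from blue to red between cell body and dendritic arrays. Pfkl, Eno2 and Slc16a7 turn the other way. Gbe1 does not turn with layer alone, as its CA1 dendritic and CA2 cell body arrays lie near its mean.

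Within an array, a pair of isoenzymes can be set against each other, and the change of this difference between layers is free of any shift that moves both. These changes are descriptions with no test. Aldoa minus Aldoc fell by 2.24 in CA1 and by 2.45 in CA2 from cell body to dendritic layer, a fold of 4.73 and 5.45 in their ratio. Slc16a7 minus Slc16a1 fell by 1.43 and 1.68, and Slc16a7 minus Slc16a3 fell by 1.17 and 0.54. In the aldolase pair and in Slc16a7 minus Slc16a1 the balance thus moved to the glial form, with no overlap of the arrays of the layers. Slc16a3 and Hk2 were above the control level on 0 of 12 arrays, so their pairs are set against signal in the background range. Ldha minus Ldhb fell by 0.93 and 1.05, and Hk1 minus Hk2 fell by 0.77 and 0.49. Pfkm minus Pfkl rose by 1.06 and 0.997, and Pfkm minus Pfkp by 0.95 and 0.45. Gpd2 minus Gpd1 rose by 0.40 and 0.96. The pair of phosphorylases showed no such move: Pygb minus Pygm changed by 0.21 in CA1 and 0.08 in CA2, with overlapping arrays in both regions.

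Other genes of the same pathways differed between layers as well, and the largest rises among them exceeded those of the 29. Of 62 further genes, 56 were measured. In CA1, 24 were higher and 13 lower in the dendritic layer (66.1% called, 42.9% higher and 23.2% lower), with a median of 0.17. Over all genes 46.8% were called, 28.3% higher and 18.5% lower, with a median of 0.12. In CA2, 15 were higher and 16 lower (55.4% called, 26.8% higher and 28.6% lower), with a median of -0.03. Over all genes 34% were called, 16.2% higher and 17.8% lower, with a median of -0.03 as well. These counts were not recomputed without the oocyte-bearing arrays. By the smallest p-values, the CA1 genes that rose were Epas1, a hypoxia-inducible factor subunit (2.77, adjusted p = 7.57e-09), Slc2a1, the glucose carrier GLUT1 of the blood-brain barrier and astrocytes (2.21, adjusted p = 1.53e-08), and the phosphorylase kinase subunits Phka1 (2.51, adjusted p = 2.16e-08) and Phkg1 (1.63, adjusted p = 4.49e-08). Epas1 (2.54), Phkg1 (1.67) and Slc2a1 (1.70) led again in CA2, together with Ppp1r3c (2.77, adjusted p = 4.26e-08), which ties protein phosphatase 1 to glycogen. Slc2a1 is also among the 6 endothelial markers. Mean values show the size of the step: Slc2a1 was 7.98 ± 0.05 (SD, n = 3) in the CA1 cell body layer and 10.19 ± 0.13 in the dendritic layer, and Ppp1r3c was 7.94 ± 0.18 and 10.71 ± 0.12 in CA2.

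The genes that fell in CA1 were Pgm2l1, which makes glucose 1,6-bisphosphate in neurons (-0.88, adjusted p = 2.71e-06), Minpp1, a phosphatase of inositol phosphates and bisphosphoglycerate (-0.85, adjusted p = 1.18e-05), Pgam2, the muscle phosphoglycerate mutase (-1.37, adjusted p = 2.25e-05), and Gaa, the lysosomal enzyme that breaks down glycogen (-0.59, adjusted p = 3.94e-05). In CA2 they were Pgm2l1 (-1.64, adjusted p = 4.26e-08), Minpp1 (-1.06, adjusted p = 2.54e-06), Slc2a6, the carrier GLUT6 (-0.93, adjusted p = 2.83e-06), and Emb, embigin, a partner of monocarboxylate carriers (-1.86, adjusted p = 3.89e-06). Of the glycogen-related genes named here, Phka1, Phkg1 and Ppp1r3c were higher in the dendritic layers, and Pgm2l1 and Gaa were lower. The phosphorylase kinase subunits did not all rise: Phka2, named after its values were seen, fell in both regions, with -0.55 (adjusted p = 0.000639) in CA1 and -0.32 (adjusted p = 0.017) in CA2.

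**Figure D4:**
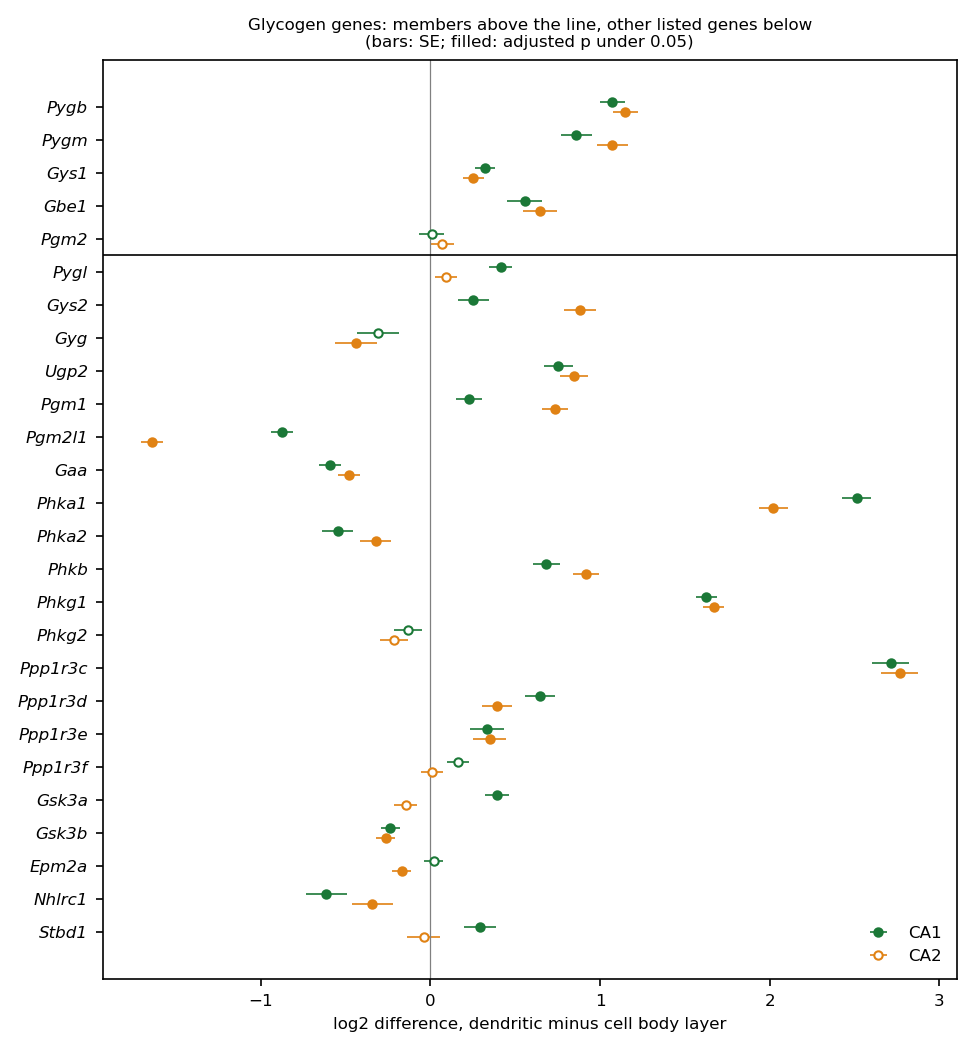
Log2 difference between dendritic and cell body layer, with SE bars, for the 5 glycogen genes of the group (above the line) and for the other glycogen genes measured (below it), in CA1 (green) and CA2 (orange). Filled points passed the test. Phka1, Phkg1 and Ppp1r3c lie farthest to the right, beyond Pygb and Pygm, and Pgm2l1 lies farthest to the left in CA2 at -1.64.

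The layer difference itself differed between the regions for 3 of the 29 genes, 1 more positive and 2 more negative in CA2. Over all genes 11.6% passed this test, 4.81% more positive and 6.81% more negative in CA2, so the share among the 29 genes, 10.3%, was near the background. The median over the 29 genes was -0.08 and over all genes -0.11. The dendritic rise of Slc16a1 was larger in CA2 by 0.56 ± 0.12 (adjusted p = 0.0181). That of Hk2 was smaller, with a difference of -0.41 ± 0.09 (adjusted p = 0.0169), and the dendritic fall of Pgam1 was deeper, with -0.38 ± 0.08 (adjusted p = 0.019). None of the 3 held in every alternative. Without the arrays with oocyte transcripts, Slc16a1 was at 0.38, Hk2 at -0.38 and Pgam1 at -0.33, and none of the 3 kept its call. Leaving out the arrays numbered 1, 2 or 3 gave 0 calls each among the 29. Over all 30145 genes it gave 1012, 698 and 1410 calls, against 3505 in the main fit. At an unadjusted p under 0.05 were 4, 6 and 7 of the 29 genes, and the share over all genes at that level was not computed. Leaving out 1 array gave 1 to 6 calls: 6 without CA1 dendritic replicate 3, 1 without CA1 cell body replicate 1 and 1 without CA2 cell body replicate 2. For the other 26 genes the layer difference was not shown to differ between regions, and for Aldoc the estimate was 0.05 ± 0.09.

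Between regions, glycolytic and glycogen genes were more often higher than lower in CA2 (a comparison where the run and the region cannot be told apart). In the cell body layers 11 of 29 genes passed, 9 higher and 2 lower in CA2, against a background of 21.1% called, 10.6% higher and 10.5% lower. The 9 were Gbe1 (0.73 ± 0.10, adjusted p = 0.000652), Pgk1 (0.48 ± 0.07, adjusted p = 0.00114), Pfkm (0.46 ± 0.08, adjusted p = 0.00227), Tpi1 (0.43), Pfkfb3 (0.43), Slc2a3 (0.42), Pgam1 (0.40), Pygm (0.35) and Pfkp (0.32). Lower were Gpd2, with -0.57 ± 0.06 (adjusted p = 0.000129), and Slc16a7, with -0.28 ± 0.07 (adjusted p = 0.0172). The arrays of the regions did not overlap for any of these 11. As the 11 were picked by their call, this adds no support, and the share over all genes was not computed. Gbe1 and Pygm were above the control level on 0 CA1 cell body arrays, so their differences are measured from the range of background signal. The call was lost in at least 1 alternative for Pfkp, Pfkfb3, Slc16a7 and Pygm, and the count fell to 7 without the arrays numbered 2. Without the oocyte-bearing arrays 9 passed, 8 higher and 1 lower, with Pfkp at 0.31 (adjusted p = 0.057) and Slc16a7 at -0.26 (adjusted p = 0.0918). The balance of directions depended on how arrays were scaled. With each array centred on its median, 13 were higher and 1 lower, and the share of higher calls over all genes went from 50.3% to 74.3% while the median of all genes went from 0.02 to 0.12.

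In the dendritic layers 13 of 29 genes passed, 8 higher and 5 lower in CA2, against 30.2% of all genes, 11.6% higher and 18.6% lower. Higher were Gbe1 (0.82 ± 0.10, adjusted p = 0.000464), Pfkp (0.59 ± 0.07, adjusted p = 0.000342), Pygm (0.57 ± 0.09, adjusted p = 0.00173), Slc2a3 (0.35), Slc16a1 (0.34), Pgk1 (0.31), Tpi1 (0.29) and Pfkm (0.24). Lower were Gpd1 (-0.35), Gpd2 (-0.28), Eno2 (-0.27), Hk2 (-0.25) and Pkm (-0.19). Called in the same direction in both layers were thus Gbe1, Pfkp, Pygm, Slc2a3, Pgk1, Tpi1 and Pfkm, all higher in CA2, and Gpd2, lower in CA2. For Gbe1 the group means rose in the order CA1 cell body, CA1 dendritic, CA2 cell body, CA2 dendritic (6.67, 7.22, 7.40 and 8.05), with 1 CA1 dendritic array, 7.43, inside the range of the CA2 cell body arrays. Only 1 of 3 CA1 dendritic arrays of Gbe1 was above the control level. These dendritic calls were the least stable. Only Pfkp passed in every alternative. With the 2 dendritic groups fitted alone 3 of the 29 passed, against 3108 of all 30145 genes, where the main fit called 9101. Leaving out the arrays with oocyte transcripts leaves 1 CA2 dendritic array, and calls were fewer over all genes too. In that setting Pfkp and Gpd1 kept their calls, and Gbe1, at 0.71, and Pygm, at 0.37, lost theirs. Of the other genes higher in CA2, Slc2a3 was then at 0.46 (adjusted p = 0.0692), Slc16a1 at 0.225 (0.341), Pgk1 at 0.29 (0.22), Tpi1 at 0.24 (0.252) and Pfkm at 0.10 (0.612). Of those lower, Gpd2 was at -0.30 (adjusted p = 0.153), Eno2 at -0.34 (0.133), Hk2 at -0.19 (0.298) and Pkm at -0.28 (0.158). Without the arrays numbered 1, 2 or 3 the counts were 4, 5 and 6. With median centring the 11 genes that passed were all higher in CA2, the share of higher calls over all genes went from 38.3% to 70.3%, and the median of all genes from -0.11 to -0.0017.

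**Figure D5:**
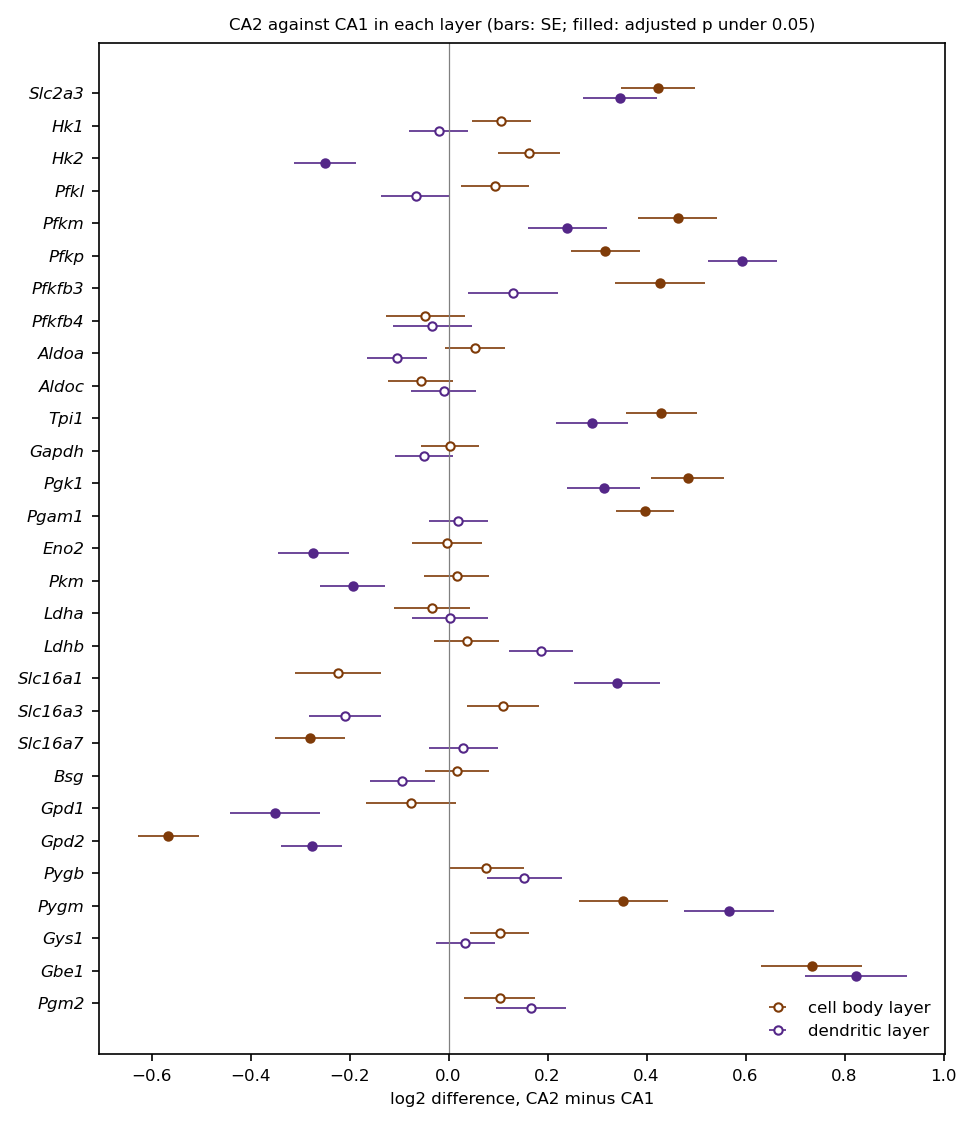
Log2 difference between CA2 and CA1 for the 29 genes in the cell body layer (brown) and the dendritic layer (purple), with SE bars; filled points passed the test. Gbe1 lies farthest to the right in both layers, at 0.73 and 0.82, and Gpd2 in the cell body layer lies farthest to the left at -0.57. Gbe1 was above the control level on 0 of 3 CA1 cell body and 1 of 3 CA1 dendritic arrays.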

How the data were processed

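The authors deposited log2 expression values made with RMA, which corrects background, normalizes quantiles and summarizes probes per feature, per the submitters' processing notes. The sources used here do not name its software or version. Per the labels' protocols, 5 to 7 ng of RNA was amplified from extracts of 5 to 30 ng with an RNA integrity number of 6.9 to 7.5. Quantile normalization within a set of arrays can compress shifts shared by many genes. Arrays carry no read depth; precision is limited by their number, 3 a group.

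Of 72688 features, 32750 were annotated, 30604 of them with 1 gene symbol and 2146 with several. For 352 genes with more than 1 such feature the brightest was kept, which left 30145 genes, of which 22522 matched a RefSeq gene by Entrez identifier. The genes were tested with limma 3.58.1 (lmFit, eBayes; R 4.3.3) in 1 fit of 12 arrays with a mean for each of 4 groups and a fixed block for the replicate number. The 5 contrasts were two-sided, with Benjamini-Hochberg adjustment over all 30145 genes and calls at an adjusted p under 0.05. The pipeline was tested on simulated data. Dimness was judged against the 95th percentile of 92 external control features on each array. An array counted as holding oocyte transcripts where the mean of 16 oocyte genes exceeded the median over arrays by more than 1.

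Alternatives were another scaling, filter, fit or set of arrays. The genes, lists and alternatives were chosen with earlier results of these data known. All measured members were named; of other pathway genes, in each region the 4 with the smallest p in each direction among those called. The labels do not tie an array to a mouse, so p-values measure the spread between these samples, which may be partly technical.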

Additional observations from a re-analysis of the deposited data

Results flagged for a closer look

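The layer difference of 3 genes, dendritic minus cell body, differed between CA2 and CA1 by the test of the difference itself in limma. For Slc16a1 it was larger in CA2 by 0.56 (adjusted p = 0.0181), for Hk2 it was -0.41 (adjusted p = 0.0169), and for Pgam1 it was -0.38 (adjusted p = 0.019). Hk2 lay in the range of the external controls on all 12 arrays, and features that Pgam1 shares with near-identical copies exist on the array. Slc16a1 was above the control level on 2 of 3 CA2 cell body arrays. The CA2 side of each value includes the 3 arrays with oocyte transcripts, and the call was lost without them.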

How the results depend on the processing

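The calls on the 29 genes were recomputed under 25 alternatives (24 for the difference between the layer differences). No called difference changed sign. Of the 24 calls on the layers of CA1, 19 held in every alternative, of 22 in CA2 17, of 3 on the difference between them 0, of 11 between the cell body layers 7, and of 13 between the dendritic layers 1. The counts for the layers stayed between 19 and 25 in CA1 and between 17 and 23 in CA2, lowest in CA2 without the arrays with oocyte transcripts. For the difference between the layer differences, quantile normalization gave 5 calls, testing only genes above the median feature level 6, and leaving out the arrays with oocyte transcripts 0 by limma; the last leaves 9 arrays. Leaving out replicates gave 0 to 6. Between the cell body layers, leaving out replicates gave 7 to 11 calls. Between the dendritic layers it gave 4 to 12, the 2 groups alone gave 3, and leaving out the arrays with oocyte transcripts gave 2. The cause of these lower counts was not tested, and each of these settings also has fewer arrays. With no replicate block 25 genes were called in the layers of CA1, 22 in those of CA2 and 4 in the difference between them, and deviations from group means did not pair the arrays: 1 of 18 same-number pairs correlated above 0.1 (range -0.35 to 0.13). The block for the pairing by number moved no count by more than 1.5 times. Signal limits most of all 4 genes, Hk2, Pfkfb4, Slc16a3 and Gys1, which were above the control level on 0 arrays. Gbe1 was above it on 7 of 12 arrays, Pygm on 9, and Slc16a1 and Slc2a3 on 11 each. Quantile normalization moved the share of higher calls to 70.4% between the cell body layers and to 56.4% between the dendritic layers.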

Other observations

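Some of these genes have features that were not used for the comparisons. A second feature of Pgk1, at the place where RefSeq puts the gene on chromosome X, gave layer differences of -0.67 in CA1 and -0.65 in CA2. A feature that Gapdh shares with Gm7336 gave -0.05 and 0.00. The features that Pgam1 shares with Gm8910 and with Pgam1-ps2 gave -0.34 and -0.90, and -0.29 and -0.48. The feature that Pfkfb2 shares with C4bp-ps1 gave 0.04 and 0.01.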
